A study of Bos taurus and Ovis aries and Capra hircus with 27 samples.

Results

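The goat gene models examined here are those whose protein carries the first zinc finger of a nuclear hormone receptor, found by the spacing of its cysteines and a few of the residues between them. Of the 22131 gene models of the goat table, 18216 had a deposited protein sequence, and the others could not be searched. 33 models met this rule, and none was a marked copy of another model. The proteins were 328 to 782 residues long, with a median of 462, and 26 of the 33 also carried the second zinc finger of the family within 60 residues of the first. Among the 7 without it in this spacing were GOAT_ENSBTAP00000018594, GOAT_ENSBTAP00000048604, GOAT_ENSBTAP00000010606, GOAT_ENSBTAP00000021832, GOAT_ENSBTAP00000026059 and GOAT_ENSP00000310928. RNA was sequenced from heart, liver and kidney of indigenous goats aged about 3 years, with 3 libraries under each tissue label, and the study's methods describe 3 unrelated adult females per population. No treatment or allele separates the groups, which differ by tissue label alone. Expression is given as FPKM, the fragments of a transcript scaled to its length and to the size of the library, so that levels of different genes can be set side by side per length.

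The files pair no goat model with a gene symbol, and no reference protein was used here, so each model is called by its identifier. The 5 residues at the base of the first finger, the P-box, contact DNA and separate classes of the family. 19 members had the common box EGCKG, and there were 2 each with GSCKV (ketosteroid receptors), EGCKA (oestrogen receptors), EACKA (oestrogen-related receptors), EGCKS (COUP transcription factors) and DGCKG (HNF4). DGCSG (NR2E) and ESCKG (NR5A) were found in 1 member each, and the boxes of the other 2 members have none of these spellings, though 1 of them, GOAT_ENSBTAP00000048604, was recognised as an NR2E3 type in the way described next. A receptor type in parentheses after an identifier, such as HNF4A type, is the analyst's recognition of the protein sequence from memory. It was made after expression values had been seen, was not verified against any reference, and is a label for orientation, not a result. One check did not use expression. Where 2 members shared a goat scaffold, the recognised symbols lay on 1 cattle chromosome in 5 of 5 pairs, with 0 to 6 coding genes between them in cattle and 0 to 6 models between them in goat. These pairs lay on scaffolds 1149, 4 and 762 alone, and some shared a member. The check therefore says nothing of the types given to members on other scaffolds.

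Nuclear hormone receptors are transcription factors that bind DNA through paired zinc fingers, and many are switched by a small fat-soluble ligand such as a steroid, a thyroid hormone, a retinoid, a bile acid or a fatty acid. Some act alone, many pair with a retinoid X receptor, and others have no known physiological ligand. In liver the family is known for the control of bile acid, lipid and xenobiotic metabolism, and in heart for the control of oxidative metabolism.

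The libraries labelled kidney went against their label, and this stands before every result that uses them. 4 models recognised in the same unverified way as kidney markers (UMOD, SLC12A1, AQP2 and LRP2 types) were all below 0.5 FPKM in all 3 libraries, and their summed level there was 0.0263 to 0.199 FPKM. 4 models recognised as immune cell markers (PTPRC, CD3E, CD68 and CSF1R types) summed to 832 to 1377 FPKM in these libraries, against 22.7 to 28.0 in heart and 44.5 to 80.8 in liver. The 3 cardiomyocyte marker models summed to 34022 to 55624 FPKM in heart, to at most 0.352 in liver and to at most 7.82 in the libraries labelled kidney. The 4 hepatocyte marker models summed to 14756 to 25354 FPKM in liver, to at most 6.31 in heart and to 37.7 to 160 in the libraries labelled kidney. One of them, GOAT_ENSBTAP00000022763 (ALB type), was listed at 0 in the first liver library and at 11676 and 9247 FPKM in the other two, so a value listed at 0 can stand in a library whose tissue is known to express the gene. What tissue the libraries labelled kidney hold was not tested. In bulk tissue, fewer cells of a type and less RNA per cell cannot be told apart.

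**Figure D1:**
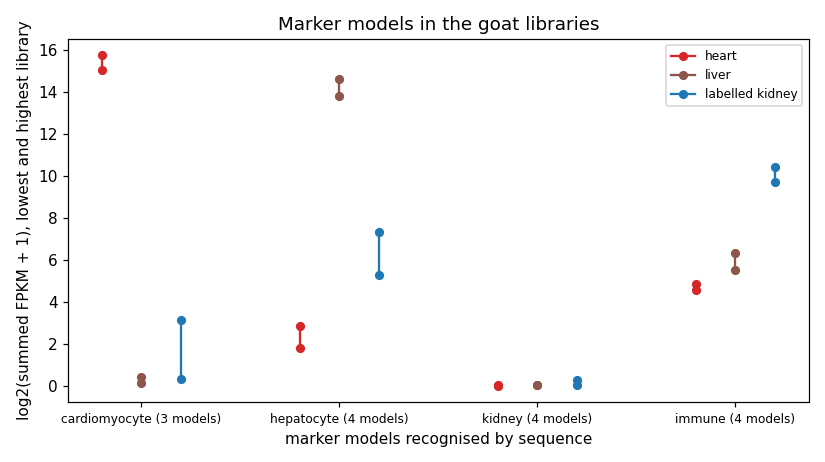
Summed level of the marker models of 4 cell types, as log2(summed FPKM + 1), with the lowest and the highest of the 3 libraries of each tissue label joined by a line. The kidney marker models are near 0 in every group, including the libraries labelled kidney, where the immune marker models reach 832 to 1377 FPKM.

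The members together made up a small part of each library. Their summed level was 348 to 422 FPKM in heart, 401 to 459 in liver and 268 to 407 in the libraries labelled kidney, which is 0.0480% ± 0.00493, 0.0715% ± 0.00248 and 0.0577% ± 0.0145 of the summed FPKM of all models (SD, n = 3 each). In heart the 3 most abundant members held 62.3% to 64.8% of the members' sum, in liver 36.7% to 39.0%. Replicates of a tissue differed by a median SD of 0.21 in heart, 0.31 in liver and 0.25 in the libraries labelled kidney on the log2(FPKM + 1) scale over the members tested, against 0.22, 0.30 and 0.26 over all models tested. 29 members exceeded 0.5 FPKM in 3 or more libraries and were tested, and 16 of these were above it in all 9. The 4 members that were not tested were GOAT_ENSBTAP00000048604 (NR2E3 type), at 0 in every library, GOAT_ENSBTAP00000028921 (RORB type), GOAT_ENSBTAP00000051195 (PGR type) and GOAT_ENSP00000343925 (ESR2 type).

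**Figure D2:**
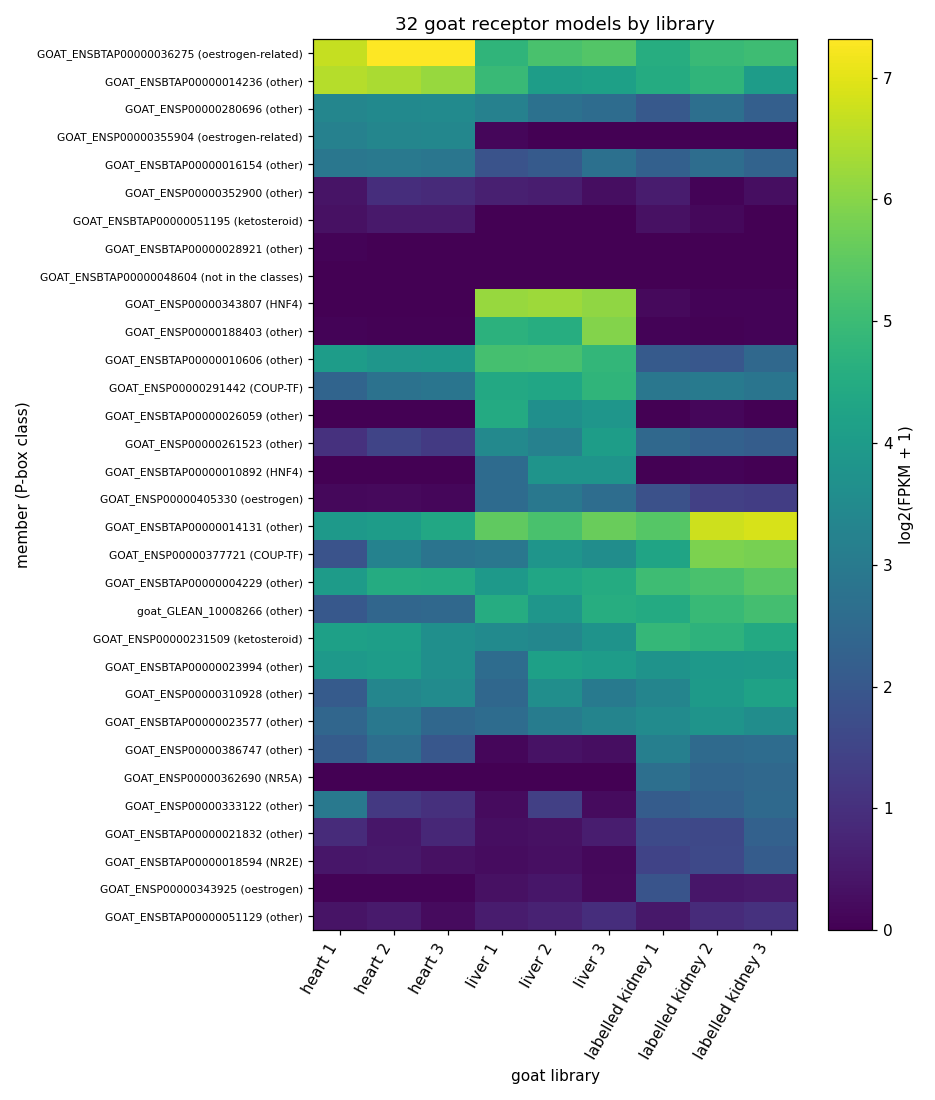
Level of 32 members (rows, with the P-box class in parentheses) in each of the 9 goat libraries (columns), as log2(FPKM + 1), with rows ordered by the tissue label of the highest mean. The blocks of high values for heart, liver and the libraries labelled kidney in turn follow from this ordering. 4 rows were too low to be tested.

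The first question was which receptors differ between heart and liver. Log2 differences below are heart minus the other label, or liver minus the libraries labelled kidney, on the log2(FPKM + 1) scale. Of the 29 members tested, 5 were higher and 10 lower in heart at an adjusted p under 0.05. This count and those that follow include members above 0.5 FPKM under 1 label alone, which the next paragraph sets apart. Over all 13634 models tested, 29.6% were higher and 19.6% lower, against 17.2% and 34.5% of the members. Between heart and the libraries labelled kidney, 6 members were higher and 11 lower in heart, where 17.9% of all models were higher and 45.3% lower. With quantile normalization these counts were 9 and 7, where 28.1% of all models were higher and 29.7% lower. Between liver and the libraries labelled kidney, 9 members were higher and 9 lower in liver, where 13.4% of all models were higher and 51.6% lower. With median ratio scaling these counts were 12 and 4, where 25.1% of all models were higher and 27.2% lower. The median of all models was lower by 0.55 in heart and by 0.69 in liver than in the libraries labelled kidney, on the log2(FPKM + 1) scale.

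3 members were higher in heart than under both other labels (10.3% of members, 14.5% of all models), 8 in liver (27.6%, against 9.59%) and 7 in the libraries labelled kidney (24.1%, against 34.2%). The count for the libraries labelled kidney was 3 with median ratio scaling (17.6% of all models) and 4 with quantile normalization (19.3% of all models). 7 of the members tested were above 0.5 FPKM under 1 label alone, 4 of them in liver, 2 in the libraries labelled kidney and 1 in heart. These passed the filter only through the group where they were high, so their levels are given below as a description, with no p. Of the 22 other members, heart had 2 that were elevated, liver 4 and the libraries labelled kidney 5, which is 9.09%, 18.2% and 22.7%, against 13.6%, 7.76% and 33.4% of the 12518 models left by the same restriction. Of these 22, 4 were higher and 6 lower in heart than in liver (18.2% and 27.3%, against 30% and 18.7% of those models). Between heart and the libraries labelled kidney 5 were higher and 9 lower in heart (22.7% and 40.9%, against 17.3% and 45.4%). Between liver and those libraries 5 were higher and 7 lower in liver (22.7% and 31.8%, against 11.9% and 52.3%). With the study's stricter filter 3 of 16 members were elevated in liver, and the share of all models under that filter was not computed.

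**Figure D3:**
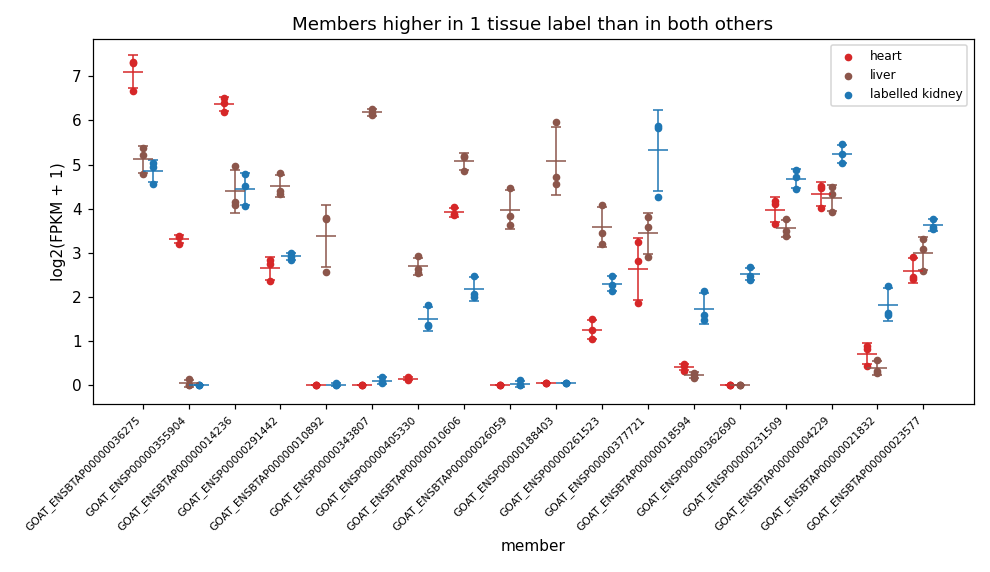
Level of the 18 members that were higher under 1 tissue label than under both others, as log2(FPKM + 1), with 3 libraries per label as points, their mean as a dash and the SD as a bar. The 3 members on the left were highest in heart, the next 8 in liver and the last 7 in the libraries labelled kidney.

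The oestrogen-related class, orphan receptors known for the control of mitochondrial genes, was highest in heart in both its members. GOAT_ENSBTAP00000036275 (ESRRA type) was the most abundant member of the family in heart, and stood at 101, 157 and 159 FPKM in heart, 26.4, 36.1 and 40.4 in liver and 22.6, 29.9 and 31.9 in the libraries labelled kidney. All 3 heart libraries were above all 6 others. In the deposited protein file the model lies on scaffold 1463, positions 249516 to 255201, minus strand. The log2 difference was 1.98 ± 0.25 (SE), adjusted p = 1.6e-04, from liver, and 2.25 ± 0.25 (SE), adjusted p = 6.2e-05, from the libraries labelled kidney. GOAT_ENSP00000355904 (ESRRG type) stood at 8.26, 9.29 and 9.40 FPKM in heart, 0.102, 0 and 0 in liver and 0 throughout in the libraries labelled kidney, and so was above 0.5 FPKM in heart alone. The fingers of these 2 members were 90.9% identical over 66 residues.

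The third member highest in heart was GOAT_ENSBTAP00000014236 (THRA type), recognised as a thyroid hormone receptor, at 90.03, 83.02 and 71.97 FPKM in heart, 30.1, 15.9 and 16.7 in liver and 21.9, 26.4 and 15.6 in the libraries labelled kidney. Its log2 difference from liver was 1.97 ± 0.28 (SE), adjusted p = 3.2e-04. This model overlaps GOAT_ENSBTAP00000016154 (NR1D1 type), a model on the other strand of scaffold 1149, by 355 bases. The libraries were strand-specific per the labels, but whether the counting used strand is not given in the sources used here, so how reads of the overlap were assigned is not known. The second model recognised as a thyroid hormone receptor, GOAT_ENSP00000280696 (THRB type), stood at 9.21, 10.1 and 10.3 FPKM in heart, 8.23, 5.61 and 4.98 in liver and 3.12, 5.34 and 3.61 in the libraries labelled kidney, and its difference from liver did not pass the test (adjusted p = 0.054), while that from the libraries labelled kidney did (log2 difference 1.14 ± 0.23 (SE), adjusted p = 0.002).

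Both members of the HNF4 class, whose known members control hepatocyte genes, were at 0 in heart and high in liver. They lie on scaffold 423, positions 1291588 to 1318195, minus strand, and scaffold 998, positions 1192568 to 1218328, minus strand, respectively, in the order given here. GOAT_ENSP00000343807 (HNF4A type) stood at 0 throughout FPKM in heart, 71.4, 75.1 and 68.1 in liver and 0.143, 0.0428 and 0.0488 in the libraries labelled kidney. GOAT_ENSBTAP00000010892 (HNF4G type) stood at 0 throughout FPKM in heart, 4.92, 12.8 and 12.7 in liver and 0, 0.0456 and 0 in the libraries labelled kidney. Every liver library was above every other library for both. The replicate spread in liver was wider for the second, whose lowest library stood apart from the other two.

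The receptors recognised as sensors of bile acids and foreign compounds had the same order. GOAT_ENSP00000188403 (NR1H4 type), the bile acid receptor type, stood at 0.0435, 0.0393 and 0.0395 FPKM in heart, 25.2, 22.4 and 61.5 in liver and 0.0436, 0.0401 and 0.0459 in the libraries labelled kidney. GOAT_ENSBTAP00000026059 (NR1I2 type), the xenobiotic receptor type, stood at 0 throughout FPKM in heart, 21.2, 11.5 and 13.2 in liver and 0, 0.0827 and 0 in the libraries labelled kidney. In both, all 3 liver libraries stood above 11 FPKM and all 6 others below 0.1.

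Of the 2 models recognised as oxysterol receptors, which sense cholesterol derivatives, GOAT_ENSBTAP00000014131 (NR1H3 type) stood at 14.1, 15.7 and 19.8 FPKM in heart, 45.1, 35.9 and 49.3 in liver and 40.9, 107 and 115 in the libraries labelled kidney. It was lower in heart than in liver (log2 difference -1.34 ± 0.37 (SE), adjusted p = 0.013). Its difference between liver and the libraries labelled kidney had adjusted p = 0.061, and 0.032 with the replicate number as a block. GOAT_ENSBTAP00000004229 (NR1H2 type) stood at 15.1, 21.7 and 21.3 FPKM in heart, 14.2, 19.04 and 21.6 in liver and 31.9, 36.6 and 42.9 in the libraries labelled kidney, with heart and liver overlapping and the libraries labelled kidney above both (log2 difference from heart -0.91 ± 0.23 (SE), adjusted p = 0.0062). With median ratio scaling neither difference of this model from the libraries labelled kidney passed the test (adjusted p = 0.099 against heart and 0.28 against liver).

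Among the fatty acid receptor types, GOAT_ENSBTAP00000010606 (PPARA type), known for the control of fatty acid oxidation, stood at 15.5, 13.4 and 13.6 FPKM in heart, 34.95, 35.8 and 27.99 in liver and 3.21, 2.99 and 4.60 in the libraries labelled kidney, and the 3 groups did not overlap. Its log2 difference was -1.15 ± 0.20 (SE), adjusted p = 9.2e-04, between heart and liver, and 2.89 ± 0.20 (SE), adjusted p = 2.4e-06, between liver and the libraries labelled kidney. GOAT_ENSP00000310928 (PPARD type) stood at 3.30, 9.31 and 10.5 FPKM in heart, 4.47, 11.3 and 7.02 in liver and 8.98, 14.8 and 17.5 in the libraries labelled kidney, and the groups overlapped. No contrast of it passed the test without a block, and with the replicate number as a block it was lower in heart and in liver than in the libraries labelled kidney (adjusted p = 0.01 and 0.011).

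The COUP class, orphan receptors that often repress, divided between labels. GOAT_ENSP00000291442 (NR2F6 type) was highest in liver, at 4.14, 5.72 and 6.15 FPKM in heart, 20.2, 19.2 and 26.9 in liver and 6.54, 7.01 and 6.19 in the libraries labelled kidney, with a log2 difference between heart and liver of -1.87 ± 0.20 (SE), adjusted p = 5.1e-05. GOAT_ENSP00000377721 (NR2F2 type) was highest in the libraries labelled kidney, at 2.64, 8.44 and 6.01 FPKM in heart, 6.54, 13.1 and 11.04 in liver and 18.3, 57.8 and 55.7 in the libraries labelled kidney, with a log2 difference between heart and those libraries of -2.69 ± 0.50 (SE), adjusted p = 0.0012. Its difference between liver and those libraries was -1.88 ± 0.50 (SE), adjusted p = 0.0081, and was -1.10 with adjusted p = 0.055 with median ratio scaling. For this model, library 1 was the lowest under each of the 3 labels, and the adjusted p between heart and liver was 0.21 without and 0.0097 with the replicate block. The 2 fingers were 89.4% identical.

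In the oestrogen class, whose fingers were 97.0% identical, GOAT_ENSP00000405330 (ESR1 type) was highest in liver, at 0.107, 0.145 and 0.0962 FPKM in heart, 4.84, 6.57 and 5.19 in liver and 2.54, 1.60 and 1.53 in the libraries labelled kidney, with a log2 difference between heart and liver of -2.54 ± 0.18 (SE), adjusted p = 3.2e-06. GOAT_ENSP00000343925 (ESR2 type) was below 0.5 FPKM in 8 of 9 libraries and at 2.73 FPKM in the first library labelled kidney. In the ketosteroid class, GOAT_ENSP00000231509 (NR3C1 type), the glucocorticoid receptor type, stood at 16.96, 16.3 and 11.5 FPKM in heart, 10.4, 9.49 and 12.6 in liver and 28.3, 25.5 and 20.9 in the libraries labelled kidney. It was higher in the libraries labelled kidney than in liver (log2 difference -1.13 ± 0.21 (SE), adjusted p = 0.0013) and than in heart (log2 difference -0.71 ± 0.21 (SE), adjusted p = 0.015). With median ratio scaling neither passed (adjusted p = 0.25 and 0.74), and without the third heart library the difference from heart had adjusted p = 0.065. The other member of the class, GOAT_ENSBTAP00000051195 (PGR type), was at most 0.403 FPKM.

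The NR5A class held GOAT_ENSP00000362690 (NR5A1 type), whose known counterpart drives steroid hormone synthesis in adrenal and gonad. It lies on scaffold 4, positions 1647603 to 1666572, minus strand. It was at 0 in all 6 heart and liver libraries and at 5.38, 4.27 and 4.59 FPKM in the libraries labelled kidney. The 1 adrenal cortex marker model recognised, GOAT_ENSP00000276449 (STAR type), was at 2.99, 4.50 and 27.6 FPKM in those libraries and at most 0.951 elsewhere. Its part in the result was not tested. The other adrenal cortex markers looked for were not recognised, so their levels are not given. GOAT_ENSBTAP00000051129 (NR6A1 type), the neighbour of the NR5A member on scaffold 4 with no model between them, was between 0.166 and 1.07 FPKM in all 9 libraries, and no contrast passed the test. GOAT_ENSBTAP00000018594 (NR2E1 type), the member with the NR2E box, stood at 0.364, 0.396 and 0.263 FPKM in heart, 0.178, 0.225 and 0.121 in liver and 1.78, 2.05 and 3.39 in the libraries labelled kidney, below 0.5 FPKM in all 6 heart and liver libraries and above it in all 3 others. GOAT_ENSBTAP00000021832 (VDR type), the vitamin D receptor type, stood at 0.861, 0.362 and 0.775 FPKM in heart, 0.214, 0.252 and 0.490 in liver and 2.13, 2.005 and 3.80 in the libraries labelled kidney, with the libraries labelled kidney above the 6 others (log2 difference between liver and those libraries -1.44 ± 0.22 (SE), adjusted p = 3.9e-04). Its difference between heart and those libraries was -1.11 ± 0.22 (SE), adjusted p = 0.0018, and was -0.49 with adjusted p = 0.10 with quantile normalization.

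The immediate early receptor types, whose genes are known to answer stimuli within minutes, had fingers 98.5% identical. GOAT_ENSP00000386747 (NR4A2 type) stood at 3.35, 5.31 and 2.998 FPKM in heart, 0.0829, 0.275 and 0.213 in liver and 7.86, 4.78 and 4.96 in the libraries labelled kidney, and was lower in liver than in heart (log2 difference 2.01 ± 0.24 (SE), adjusted p = 8.9e-05). GOAT_ENSP00000333122 (NR4A3 type) stood at 6.83, 1.34 and 1.01 FPKM in heart, 0.165, 1.62 and 0.172 in liver and 3.39, 3.86 and 4.70 in the libraries labelled kidney. Its first heart library was far above the other two, and it had the widest spread among the members in heart, with an SD of 1.08 on the log2 scale. Its only difference past the test, between liver and the libraries labelled kidney, had adjusted p = 0.015 and did not pass with median ratio scaling (adjusted p = 0.11) or without the first liver library (adjusted p = 0.052).

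The receptor types linked to the daily clock did not move as one. GOAT_ENSP00000261523 (RORA type) was highest in liver, at 1.08, 1.82 and 1.37 FPKM in heart, 9.93, 8.27 and 15.9 in liver and 4.58, 3.82 and 3.43 in the libraries labelled kidney, with a log2 difference between heart and liver of -2.32 ± 0.25 (SE), adjusted p = 4.7e-05. GOAT_ENSBTAP00000016154 (NR1D1 type) stood at 6.49, 6.77 and 6.29 FPKM in heart, 2.65, 3.23 and 5.47 in liver and 3.78, 5.07 and 3.98 in the libraries labelled kidney, and its higher level in heart than in liver (adjusted p = 0.031) did not pass when any 1 of the 3 heart libraries, or liver library 1 or 2, was left out (adjusted p = 0.068 to 0.096), nor with the heart and liver libraries alone (adjusted p = 0.061). GOAT_ENSBTAP00000023994 (NR1D2 type) stood at 14.5, 15.5 and 11.5 FPKM in heart, 4.99, 16.8 and 15.5 in liver and 12.5, 14.5 and 14.9 in the libraries labelled kidney, and no contrast passed the test.

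Of the remaining types, goat_GLEAN_10008266 (RARA type), the retinoic acid receptor type, stood at 3.02, 4.38 and 4.57 FPKM in heart, 22.05, 13.4 and 22.5 in liver and 21.3, 29.4 and 33.8 in the libraries labelled kidney, with heart below all 6 other libraries (log2 difference between heart and liver -2.01 ± 0.26 (SE), adjusted p = 1.9e-04). GOAT_ENSBTAP00000023577 (NR2C1 type) stood at 4.34, 6.55 and 4.45 FPKM in heart, 5.003, 7.48 and 8.91 in liver and 10.6, 12.7 and 10.96 in the libraries labelled kidney. Its lower level in liver than in the libraries labelled kidney (log2 difference -0.64 ± 0.24 (SE), adjusted p = 0.037) turned to 0.10 with median ratio scaling and 0.08 with quantile normalization. GOAT_ENSP00000352900 (RXRG type), the retinoid X receptor type, was at most 0.929 FPKM in any library, and no contrast passed the test.

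24 models were recognised, in the same unverified way, among the fixed lists of coregulators, ligand enzymes and carriers, receptor targets and clock genes, and 21 of them were tested. Most genes of these lists were not recognised, and the recognition followed sight of the values. The counts below therefore describe the models recognised and not the lists. Between heart and liver 3 were higher and 9 lower in heart, between heart and the libraries labelled kidney 5 and 5, and between liver and those libraries 11 were higher and 4 lower in liver. Over all models tested, 29.6% were higher and 19.6% lower in the first of these comparisons, 17.9% and 45.3% in the second, and 13.4% and 51.6% in the third. With the replicate block 6 were higher and 9 lower in heart than in liver. Of the 4 coregulators recognised, GOAT_ENSBTAP00000048844 (PPARGC1A type), a partner known to act with oestrogen-related and fatty acid receptors, stood at 13.4, 14.2 and 10.4 FPKM in heart, 4.31, 22.4 and 5.02 in liver and 0.413, 0.442 and 0.429 in the libraries labelled kidney. Heart and liver overlapped (adjusted p = 0.36). GOAT_ENSBTAP00000019772 (NR0B2 type), a receptor that lacks the zinc finger and is known as a target of the bile acid receptor, was at 1.01, 1.54 and 1.52 FPKM in heart, 7.01, 2.40 and 19.9 in liver and 0.121, 0.109 and 0.632 in the libraries labelled kidney. GOAT_ENSBTAP00000006957 (CYP7A1 type), known as the rate-limiting enzyme of bile acid synthesis, was at 0 throughout FPKM in heart, 104, 5.35 and 11.6 in liver and 0 throughout in the libraries labelled kidney, and the first liver library was far above the other two. Of the 5 clock models, GOAT_ENSBTAP00000013008 (BHLHE40 type) was lowest in heart, at 3.64, 3.88 and 3.77 FPKM in heart, 34.9, 68.3 and 49.8 in liver and 13.3, 13.05 and 16.3 in the libraries labelled kidney, and GOAT_ENSP00000426983 (CLOCK type) passed no contrast without the block and had adjusted p = 0.049 between heart and liver with it.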

How the data were processed

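The authors mapped strand-specific RNA-seq reads with TopHat and made FPKM values with Cufflinks 2.2.1. The labels name the build UMD3.1 for all samples, whereas the study's methods name CHIR_1.0 for goat. The deposited goat table holds log2(FPKM + 1), and FPKM was recovered from it. Read depth per library is not in this table, so no counting interval is given, and a model listed at 0 may be one whose estimation failed. Scaffold positions are those of the deposited protein file. Libraries were grouped by their titles. The cattle and sheep tables were not used. Models above 0.5 FPKM in at least 3 of 9 goat libraries were tested with limma 3.58.1 on log2(FPKM + 1), with a mean per tissue, a trended prior and Benjamini-Hochberg adjustment over all models tested. Log2 differences are on that scale and understate changes of low genes. The test was tested on simulated data for heart against liver (13634 models), where it called 28 of 100 models changed by 1 on the log2 scale, 84 of 100 changed by 2, and 7 unchanged models. The simulation changed far fewer models than were called in the data, and its noise was independent between libraries. Its recovery therefore does not measure that of the test on the data. Proteins were aligned with Biopython 1.88.

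Same-numbered libraries deviated together (correlations of 0.146 to 0.473 in 9 of 9 pairs, against -0.417 to 0.134 in the 18 others), so the number was also used as a block. Deviations were taken from the mean of each label's libraries, so positive values in some pairs push the others down. The 18 others are therefore not an independent comparison. The study describes several tissues taken from each animal, so libraries of different labels can share an animal. The labels do not say which libraries do. The main fit did not use any such pairing, and its p-values measure the spread between these libraries.

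Members and lists were chosen with earlier results of these data known. The planned naming of models by pairing or reference proteins could not be run. Receptor types, markers and pathway models were instead recognised from memory of protein sequences, after values had been seen, and are unverified. This departs from the plan, under which members keep identifiers and P-box classes only. All tested members but 1, which is not reported here, were described.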

Additional observations from a re-analysis of the deposited data

How the results depend on the processing

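The study's stricter filter, over 80% of libraries past 0.5 FPKM, left 16 members, and with fewer members tested the counts fell: heart against liver 3 higher and 5 lower, heart against the libraries labelled kidney 7 lower, liver against those libraries 4 higher and 4 lower, and 3 members elevated in liver and 4 in the libraries labelled kidney. With median ratio scaling 4 members were lower in liver than in the libraries labelled kidney and 3 were elevated in the latter, with quantile normalization 7 were lower in heart than in those libraries and 4 elevated in them, and with the replicate block and median ratio scaling together 5 were lower in liver and 4 elevated in those libraries; the cause was not tested. GOAT_ENSBTAP00000023577 turned from lower to higher in liver than in the libraries labelled kidney, by 0.10 with median ratio scaling, with or without the block, and by 0.077 with quantile normalization. These scalings moved the median of all models by 0.55 and 0.54 for heart, and by 0.71 and 0.58 for liver, against the libraries labelled kidney. The replicate block alone gave 5 higher and 11 lower in heart than in liver, 6 and 12 in heart than in the libraries labelled kidney, and 9 and 11 in liver than in those libraries. Leaving out 1 library gave 4 to 6 and 10 to 11 for heart against liver, 6 to 7 and 10 to 12 for heart against the libraries labelled kidney, 9 to 10 and 7 to 10 for liver against them, and 3 to 4, 8 to 8 and 5 to 8 members elevated in heart, liver and the libraries labelled kidney. Fitting the heart and liver libraries alone, chosen after seeing the data, gave 4 higher and 10 lower. Shares of all models were not computed for the stricter filter, the replicate block, the leave-out fits or this fit. The member counts under those settings therefore cannot be set against all models. Names by reciprocal match at a stricter identity were not run, since no reference protein was used here.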
